A study of Cricetulus griseus with 6 samples.

Results

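The proteasome genes described here are those whose array symbol began with Psm, followed by a letter from a to g and a digit. That naming covers the subunits, activators, inhibitor and assembly chaperones of the proteasome. Of 14899 genes with a probe set that carried 1 gene symbol, 43 matched. The Psmd2 gene had a pair of probe sets and was represented by the brighter one. The lists used to sort the members into classes held 50 names. The 7 without a usable probe set were Psma5, Psma6, Psma7, Psma8, Psmc1, Psmd1 and Psmd3, which are not analysed here. A pair of matches, Psmc3ip and Psme3ip1, are not proteasome components and are given separately.

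CHO-K1, an established line derived from Chinese hamster ovary, was grown in suspension in 6 shaken flasks. In 3 flasks the medium, SFM-F10, lacked putrescine for 3 days, and in the other 3 it held 1 mg/l putrescine. Putrescine is the diamine from which cells build the longer polyamines. All cultures shared the cell line, a medium with no other polyamine and no ornithine, the seeding density and the sampling day. Each culture had its own Affymetrix whole-transcript array, read as log2 values per probe set.

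The proteasome degrades proteins that carry ubiquitin. Its 20S core stacks outer alpha rings, which gate entry, on inner beta rings, which hold the proteolytic sites. A 19S cap, built from a base with an ATPase ring and a lid that removes ubiquitin, unfolds the substrate and feeds it in. Interferon-inducible beta subunits can take the place of the constitutive catalytic ones to form the immunoproteasome, and activators other than the 19S cap can bind the ends of the core. Polyamine metabolism is tied to this machine, since ornithine decarboxylase is degraded by it with the help of antizyme.

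Without putrescine, proteasome transcripts were mostly a little higher. Among the 43 members 18 rose and 1 fell, while 24 missed the threshold of 0.05 (limma, Benjamini-Hochberg adjusted over all 29700 probe sets). The immunoproteasome subunit gene Psmb8 had the largest difference of the 43, at 2.42-fold, and the activator gene Psme2 followed at 1.95-fold. Psme4, an activator gene, was the member that fell, by 1.67-fold. The median log2 difference (without minus with putrescine) was 0.23 over the members, against 0.01 over all probe sets.

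Over the whole array 24.4% of probe sets passed the test, 13.2% higher and 11.2% lower. Brighter probe sets passed more often. Among the 5023 genes with a mean of at least 8, 48.6% passed, 27.0% higher and 21.6% lower, and their median difference was 0.04. Of the members 39 had a mean of at least 8. The share of members that passed, 44.2%, was therefore not above that of bright genes. The members differed from them in direction, with 41.9% higher and 2.33% lower. The log2 difference was above 0 in 86% of members (37 of 43), against 54.5% of the bright genes. In 26 members every array without putrescine was above every array with it, and in 3 every one was below. Those patterns held for 19.8% and 17.6% of all probe sets, and for 38.4% and 31.0% of the bright genes. No test was made of the members as a group, because they were chosen with earlier results of these data known.

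**Figure D1:**
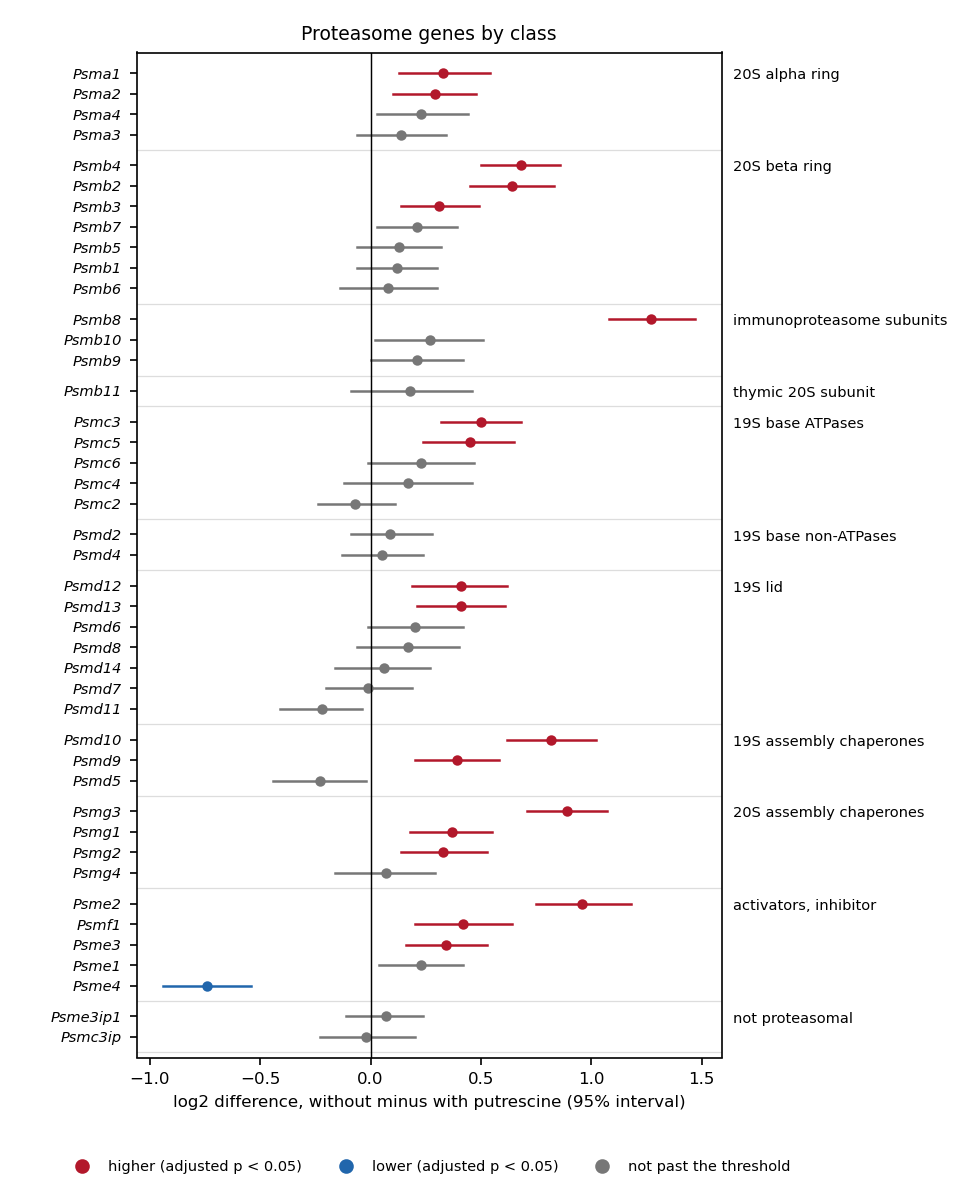
Log2 difference without minus with putrescine (x axis) for each of the 43 members, grouped by class, as the estimate of the limma fit with its 95% interval (3 arrays per group). Red marks the 18 members that rose, blue the 1 that fell and grey those that did not pass; Psmb8 at 1.27 and Psme4 at -0.74 are the extremes.

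Among the alpha ring genes of the core, 2 of the 4 measured members rose and none fell. The share higher was 50%, against 27.0% of bright genes and 13.2% of all probe sets. The share lower was 21.6% of bright genes and 11.2% of all probe sets. Psma1 had 10.35, 10.47 and 10.60 without putrescine, against 10.12, 10.14 and 10.16 with it. Psma2 had 10.87, 10.92 and 11.02, against 10.72, 10.63 and 10.59. In both genes the groups did not overlap, and the differences were 0.33 (SE 0.09, adjusted p = 0.0269) and 0.29 (SE 0.09, adjusted p = 0.0377) in limma. Psma4 had a difference of 0.23 (adjusted p = 0.0967), again without overlap, and passed with a trended robust variance (0.0155). Psma3 had 10.33, 10.24 and 10.42 without putrescine and 10.16, 10.27 and 10.14 with it, so its groups overlapped (difference 0.14, adjusted p = 0.316). All 4 alpha genes were highest in replicate 3 among the cultures without putrescine. The Psma1 call was lost without that replicate, and also without no-putrescine replicate 2 or any 1 of the arrays with putrescine (range of the adjusted p across alternatives 0.00257 to 0.0791). The Psma2 call was lost without any 1 of the arrays except replicate 1 of the putrescine-fed cultures, with replicate number as a block and after quantile normalization (0.00276 to 0.118).

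Of the 7 constitutive beta ring genes 3 rose, all of them among the 4 whose products have no proteolytic site. The share higher was 42.9%, against 27.0% of bright genes and 13.2% of all probe sets. Psmb2 and Psmb4 were the constitutive core genes with the largest differences. Psmb4 had 10.37, 10.41 and 10.36 without putrescine, against 9.74, 9.65 and 9.70 with it. The lowest array without putrescine thus lay well above the highest with it, and the gene was 1.61-fold higher (log2 difference 0.68, SE 0.08, limma adjusted p = 0.000401). Psmb2 had 10.73, 10.77 and 10.64 without putrescine and 10.14, 10.01 and 10.07 with it. It was 1.56-fold higher (log2 difference 0.64, SE 0.08, limma adjusted p = 0.000786). Psmb3, another structural subunit gene, was 1.24-fold higher (adjusted p = 0.0183). That call was lost without no-putrescine replicate 2, with replicate 2 or 3 of the putrescine-fed cultures left out and with replicate number as a block (range of the adjusted p across alternatives 0.00187 to 0.0645). Psmb1, also structural, had 0.12 (adjusted p = 0.354).

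None of the 3 catalytic beta genes passed the test. Psmb5, which encodes the chymotrypsin-like subunit, had 9.81, 9.79 and 9.67 without putrescine and 9.67, 9.62 and 9.59 with it. The groups met at 9.67, and the difference of 0.13 had a 95% interval from -0.06 to 0.32. Psmb6, of the caspase-like site, had 9.13, 8.96 and 8.94 without putrescine and 9.05, 8.88 and 8.86 with it. Its groups overlapped, with a difference of 0.08 (interval -0.14 to 0.30). Psmb7, of the trypsin-like site, had 10.12, 10.12 and 10.08 without putrescine, against 9.92, 9.85 and 9.92 with it. Here the groups were separate, but the difference of 0.21 did not pass (interval 0.03 to 0.39, adjusted p = 0.0884). It passed when dim probe sets were left out, with a trended robust variance and in the fit per gene (0.0151 to 0.224 across alternatives). All 7 beta ring genes were highest, or tied for highest, in replicate 1 among the cultures with putrescine.

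Psmb8 encodes the immunoproteasome subunit that replaces the product of Psmb5. It had 9.09, 9.27 and 9.25 without putrescine, against 7.92, 7.94 and 7.93 with it. Every array without putrescine stood above 9, and the 3 arrays with putrescine were almost identical. The log2 difference was 1.27 (SE 0.09, 95% interval 1.08 to 1.47, limma adjusted p = 4.21e-05), which ranked 93 from the highest among 14899 genes. The call held in all 11 alternatives, with differences from 1.24 to 1.33.

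The other immunoproteasome genes had far smaller differences. Psmb9, which replaces the product of Psmb6, had 7.04, 7.19 and 7.06 without putrescine and 6.87, 6.80 and 6.99 with it. Psmb10, which replaces that of Psmb7, had 6.25, 6.07 and 6.12 without putrescine and 6.01, 5.69 and 5.94 with it. In both genes every array without putrescine was above every array with it, by a narrow margin. Neither passed the test, with 0.21 for Psmb9 (interval 0.00 to 0.42, adjusted p = 0.14) and 0.27 for Psmb10 (interval 0.02 to 0.51, adjusted p = 0.114). The median difference of the 3 immunoproteasome genes was 0.27, and 0.17 with replicate 2 of the putrescine-fed cultures left out.

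Psmb11, the thymus-restricted catalytic subunit gene, had 4.53, 4.68 and 4.74 without putrescine and 4.33, 4.36 and 4.71 with it. The groups overlapped (difference 0.18, adjusted p = 0.338). As a gauge of dim probe sets, 20 markers of other tissues had means from 2.76 to 8.33 with a median of 3.94. Of those 20 markers none rose and 2 fell, the muscle genes Actn3 (-1.06) and Tnnt2 (-1.30). That is 10%, against 11.2% lower among all probe sets. Actn3 lay between 7.45 and 8.93 and was thus not dim. The median level of the 20 markers was 3.80 to 3.92 in arrays without putrescine and 3.88 to 4.05 in arrays with it. Their part in the proteasome results was not tested.

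**Figure D2:**
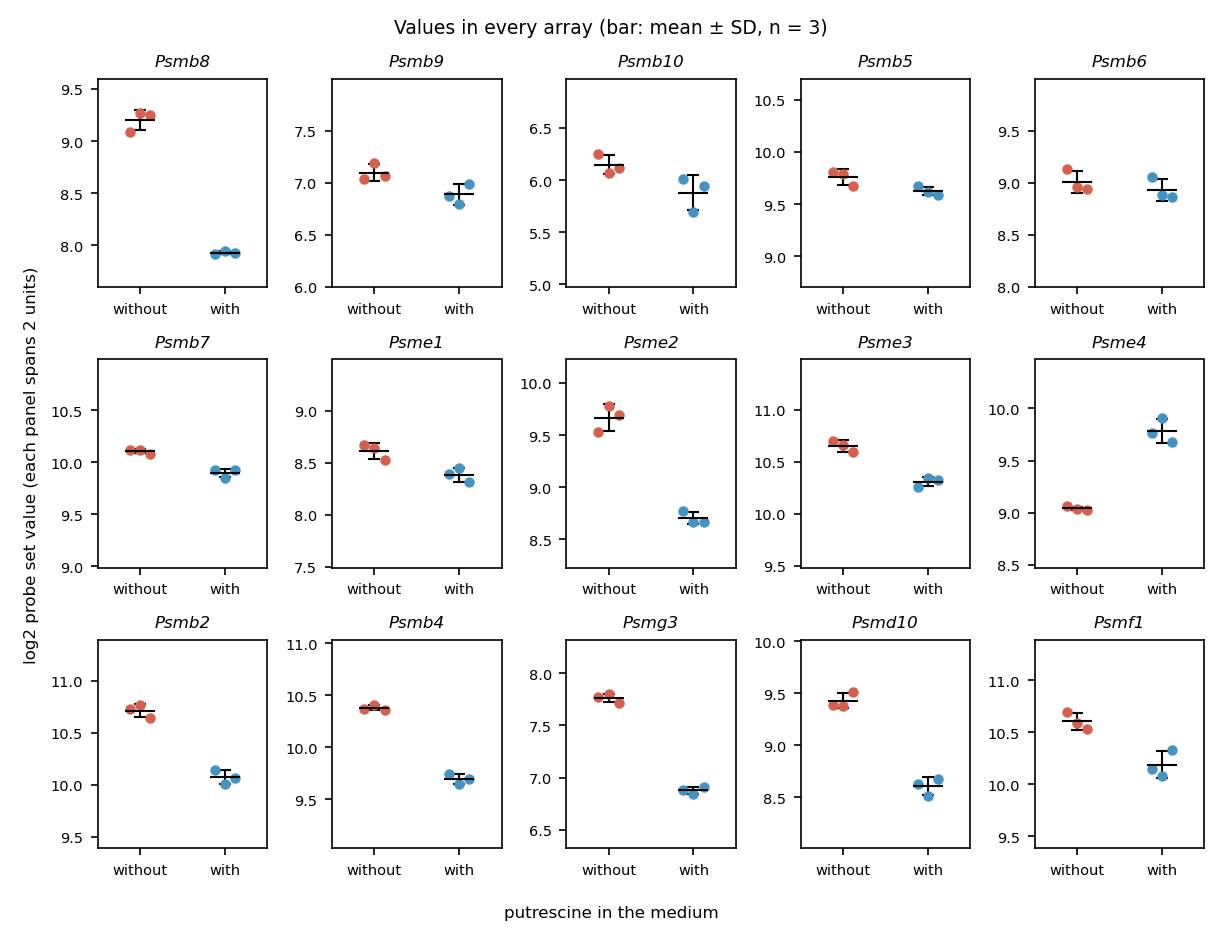
Log2 probe set value (y axis, 2 units in every panel) of 15 members in each array, without (left, red) and with putrescine (right, blue); bars are the mean ± SD of 3 arrays. The groups stand furthest apart for Psmb8, Psme2, Psmg3 and Psmd10 and, in the other direction, for Psme4, while Psmb5 and Psmb6 overlap or meet.

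Psmb8 was set against its constitutive counterpart within each array. The log2 value of Psmb8 minus that of Psmb5 was -0.72, -0.52 and -0.42 without putrescine, against -1.75, -1.68 and -1.66 with it. The 2 genes thus differed unequally between the groups, by 1.14 (SE 0.09). A two-sided exact permutation test gave p = 0.1, the smallest that 3 against 3 arrays allow, and adjusted p = 0.3 over the 3 pairs tested. For Psmb9 minus Psmb6 the change was 0.13 (SE 0.13, exact p = 0.5, adjusted p = 0.6), and for Psmb10 minus Psmb7 it was 0.06 (SE 0.09, exact p = 0.6, adjusted p = 0.6). Both were within the spread between arrays. The last was -0.01 with replicate 2 of the putrescine-fed cultures left out.

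A further 3 pairs were chosen after their values were seen and are described with no test. Psmb8 minus Psmb9, a pair of inducible genes that lie close together in the mammalian major histocompatibility region, was 2.05, 2.08 and 2.19 without putrescine. With putrescine it was 1.05, 1.14 and 0.94. The mean change of Psmb8 exceeded that of Psmb9 by 1.06 (SE 0.07).

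**Figure D3:**
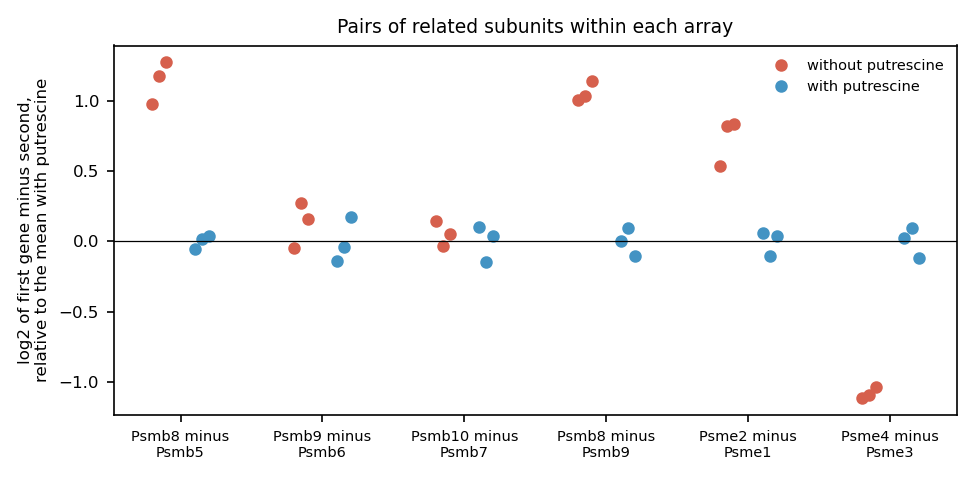
Within-array log2 value of the first gene minus the second (y axis, set to 0 at the mean with putrescine) for 6 pairs of related subunits, without (red) and with putrescine (blue), 1 point per array. The groups are apart for Psmb8 against Psmb5 and Psmb9, for Psme2 against Psme1 and for Psme4 against Psme3, and overlap for Psmb9 against Psmb6 and Psmb10 against Psmb7.

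In the 19S base, 2 of 7 measured genes rose and both encode ATPases of the ring. That is 28.6%, near the 27.0% of bright genes that were higher. Psmc3 had 9.06, 9.03 and 9.07 without putrescine, against 8.60, 8.57 and 8.50 with it. It was 1.41-fold higher (log2 difference 0.50, SE 0.08, limma adjusted p = 0.00203). Psmc5 had 9.56, 9.40 and 9.54 without putrescine and 9.10, 8.96 and 9.10 with it, a 1.36-fold difference (adjusted p = 0.00635). Both genes had separate groups. Of the other ATPases, Psmc6 had 0.23, Psmc4 0.17 and Psmc2 -0.07, and none passed. With 1 array left out Psmc4 ran from 0.06 (without replicate 2 of the putrescine-fed cultures) to 0.29 (without their replicate 1), and Psmc6 was 0.14 without no-putrescine replicate 3. Psmc2 had 10.11, 10.09 and 10.06 without putrescine and 10.16, 10.19 and 10.11 with it. Its groups met at 10.11, so the ring's subunit genes were not uniformly higher.

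The base also holds a scaffold, Psmd2, and a ubiquitin receptor, Psmd4. Psmd4 had 10.35, 10.30 and 10.28 without putrescine and 10.32, 10.19 and 10.26 with it, with overlap (difference 0.05, interval -0.13 to 0.24). Psmd2 had 0.09 at its brighter probe set and 0.26 at its dimmer one (adjusted p = 0.483 and 0.0574). At the dimmer probe set the groups did not overlap, and at the brighter one they did. The median of the base genes was 0.17, and 0.07 with replicate 2 of the putrescine-fed cultures left out.

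In the lid, 2 of 7 measured genes rose, again 28.6% against 27.0% of bright genes. Psmd12 had 10.19, 10.18 and 10.43 without putrescine, against 9.86, 9.90 and 9.82 with it. Psmd13 lay between 8.89 and 9.02 without putrescine and between 8.47 and 8.66 with it. Both encode structural lid subunits, both had separate groups, and both were 1.33-fold higher (limma adjusted p = 0.0138 and 0.00963). Psmd14, the lid deubiquitinase, had 9.94, 9.89 and 10.15 without putrescine and 9.90, 9.96 and 9.95 with it. Its groups overlapped (difference 0.06, interval -0.16 to 0.27). Psmd7, its partner in the lid, had 10.41, 10.31 and 10.45 without putrescine and 10.33, 10.48 and 10.38 with it, again with overlap (-0.01).

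Psmd11, a lid scaffold, ran the other way, with 11.15, 11.06 and 11.16 without putrescine against 11.31, 11.42 and 11.31 with it. Every array without putrescine was below every array with it, but the difference of -0.22 did not pass (adjusted p = 0.0877). It passed in 4 of 11 alternatives, at adjusted p from 0.00751. Psmd6 and Psmd8 had 0.20 and 0.17 and did not pass. The median of the lid genes was 0.17, and 0.09 with replicate 2 of the putrescine-fed cultures left out. In 6 of the 7 lid genes replicate 3 was the highest of the cultures without putrescine.

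Assembly chaperones bind unfinished proteasomes and leave the mature particle. In the 20S group 3 of 4 rose, and Psmg3 had the largest difference. The share higher was 75%, against 27.0% of bright genes and 13.2% of all probe sets. Psmg3 had 7.77, 7.80 and 7.72 without putrescine, against 6.88, 6.84 and 6.91 with it. It was 1.85-fold higher (log2 difference 0.89, SE 0.08, limma adjusted p = 0.000128). Its partner in a heterodimer, Psmg4, had 8.69, 8.72 and 8.48 without putrescine and 8.60, 8.46 and 8.63 with it, with overlap (difference 0.07, adjusted p = 0.702). The genes of the other heterodimer, Psmg1 and Psmg2, were 1.29-fold and 1.26-fold higher (adjusted p = 0.0115 and 0.0218). The Psmg2 call was lost without any 1 of the arrays except replicate 3 of the putrescine-fed cultures and with replicate number as a block (range of the adjusted p across alternatives 0.00694 to 0.0831).

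Of the 3 chaperones of the 19S base, 2 rose (66.7%, against 27.0% of bright genes and 13.2% of all probe sets). Psmd10, also known as gankyrin, had 9.39, 9.38 and 9.51 without putrescine, against 8.63, 8.51 and 8.68 with it. The groups lay far apart, and the gene was 1.77-fold higher (log2 difference 0.82, SE 0.09, limma adjusted p = 0.000294). Psmd9 was 1.31-fold higher (adjusted p = 0.00931). Psmd5 had 8.63, 8.52 and 8.59 without putrescine and 8.73, 8.95 and 8.74 with it. Every array without putrescine was lower, but the difference of -0.23 did not pass (adjusted p = 0.12).

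The activator genes moved in opposite directions. Psme1 and Psme2 encode the subunits of the interferon-inducible ring activator. Psme2 had 9.53, 9.78 and 9.69 without putrescine, against 8.77, 8.67 and 8.67 with it (log2 difference 0.96, SE 0.09, limma adjusted p = 0.000188). Psme1 had 8.67, 8.64 and 8.53 without putrescine and 8.39, 8.45 and 8.31 with it. Its groups were separate, but the difference of 0.23 did not pass (interval 0.04 to 0.42, adjusted p = 0.0898). It passed when dim probe sets were left out and with a trended robust variance, at 0.0469 and 0.0424. Within arrays the difference of Psme2 exceeded that of Psme1 by 0.73 (SE 0.11), in a pair chosen after its values were seen.

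Psme4 encodes a large nuclear activator linked to the degradation of acetylated histones. It had 9.06, 9.04 and 9.03 without putrescine, against 9.76, 9.91 and 9.68 with it. The groups were well apart, and the gene was 1.67-fold lower (log2 difference -0.74, SE 0.09, limma adjusted p = 0.000493). Psme3, the gene of another nuclear activator, had 10.70, 10.66 and 10.59 without putrescine and 10.26, 10.34 and 10.32 with it. It was 1.27-fold higher (adjusted p = 0.0138). Within arrays the difference of Psme4 minus that of Psme3 was -1.08 (SE 0.07), in a pair also chosen after its values were seen.

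Psmf1, first described as a proteasome inhibitor, had 10.69, 10.59 and 10.53 without putrescine, against 10.15, 10.08 and 10.33 with it. It was 1.33-fold higher (log2 difference 0.42, SE 0.10, limma adjusted p = 0.0131). The call was lost with replicate 2 of the putrescine-fed cultures left out (range of the adjusted p across alternatives 0.000923 to 0.0526). The matches that are no proteasome components did not pass. Psmc3ip, a meiotic recombination factor, had 8.87, 8.82 and 8.61 without putrescine and 8.78, 8.74 and 8.83 with it (difference -0.02). Psme3ip1, a binding partner of the Psme3 product, had 0.07.

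By class, the constitutive core genes had a median difference of 0.23 (11 genes, 5 higher), the 19S base and lid genes together 0.17 (14 genes, 4 higher), the 20S chaperones 0.35 and the 19S chaperones 0.39. The share that rose was 45.5% in the core, 28.6% in the base and lid, 75% in the 20S chaperones and 66.7% in the 19S chaperones. Among bright genes 27.0% were higher, and among all probe sets 13.2%. None of the 25 core, base and lid genes passed as lower, against 21.6% of bright genes and 11.2% of all probe sets. Psmd11, a lid gene, was nevertheless lower in every array without putrescine (-0.22) and passed as lower in 4 of 11 alternatives. The largest difference among the 25 genes, 0.68 for Psmb4, was below those of Psmb8, Psme2, Psmg3 and Psmd10. These medians are descriptions, and the differences between classes were not tested. Because the arrays hold RNA from whole cultures, a difference per cell and a difference in the share of cells that make a transcript cannot be told apart.

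Partner genes without a Psm name moved in both directions. Of 10 measured, 1 rose and 3 fell, while 6 did not pass, with a median of -0.13. The share that passed, 40% (10% higher, 30% lower), compares with 24.4% of all probe sets and 48.6% of bright genes (27.0% higher, 21.6% lower). Pomp, the maturation factor that helps the beta ring form, had 11.08, 11.08 and 11.15 without putrescine, against 10.50, 10.36 and 10.41 with it. It was 1.60-fold higher (log2 difference 0.68, SE 0.08, limma adjusted p = 0.000515). Zfand5, which stimulates the proteasome, had 10.75, 10.85 and 10.94 without putrescine and 11.58, 11.67 and 11.58 with it. It was 1.70-fold lower (log2 difference -0.76, SE 0.09, limma adjusted p = 0.000385). The cap deubiquitinase gene Uchl5 had -0.40 (adjusted p = 0.014). Akirin2, which carries proteasomes into the nucleus, had -0.31 (adjusted p = 0.0299). The Uchl5 call was lost without replicate 2 of either group (up to 0.0538). The Akirin2 call was lost without any 1 of the arrays except no-putrescine replicate 3 and with replicate number as a block (up to 0.0945). The cap ubiquitin receptor gene Adrm1 had -0.08 and the scaffold gene Ecpas 0.10, and neither passed.

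NFE2L1 is a transcription factor that drives proteasome genes when proteasome activity is low, and its own activity is set largely after translation. Nfe2l1 had 10.36, 10.44 and 10.25 without putrescine, against 11.42, 11.63 and 11.58 with it. The groups were far apart, and its transcript was 2.29-fold lower (log2 difference -1.19, SE 0.09, limma adjusted p = 8.11e-05). Ngly1, whose product removes sugars from NFE2L1 during its activation, had 7.53, 7.32 and 7.66 without putrescine, against 8.19, 8.09 and 8.05 with it. It was 1.52-fold lower (adjusted p = 0.00322). Both were lower in the same arrays in which 18 proteasome genes were higher. A link between them was not tested, and the arrays do not measure the activity of NFE2L1. Of the 7 measured genes of this axis and of substrate delivery, 3 fell and none rose. That is 42.9%, all lower, against 11.2% lower among all probe sets, and 48.6% passing in either direction among bright genes (21.6% lower). The third, the stress-induced proteasome adaptor gene Zfand2a, had -0.29 (adjusted p = 0.0414), a call lost without any 1 of the 6 arrays and with replicate number as a block (0.00754 to 0.137).

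**Figure D4:**
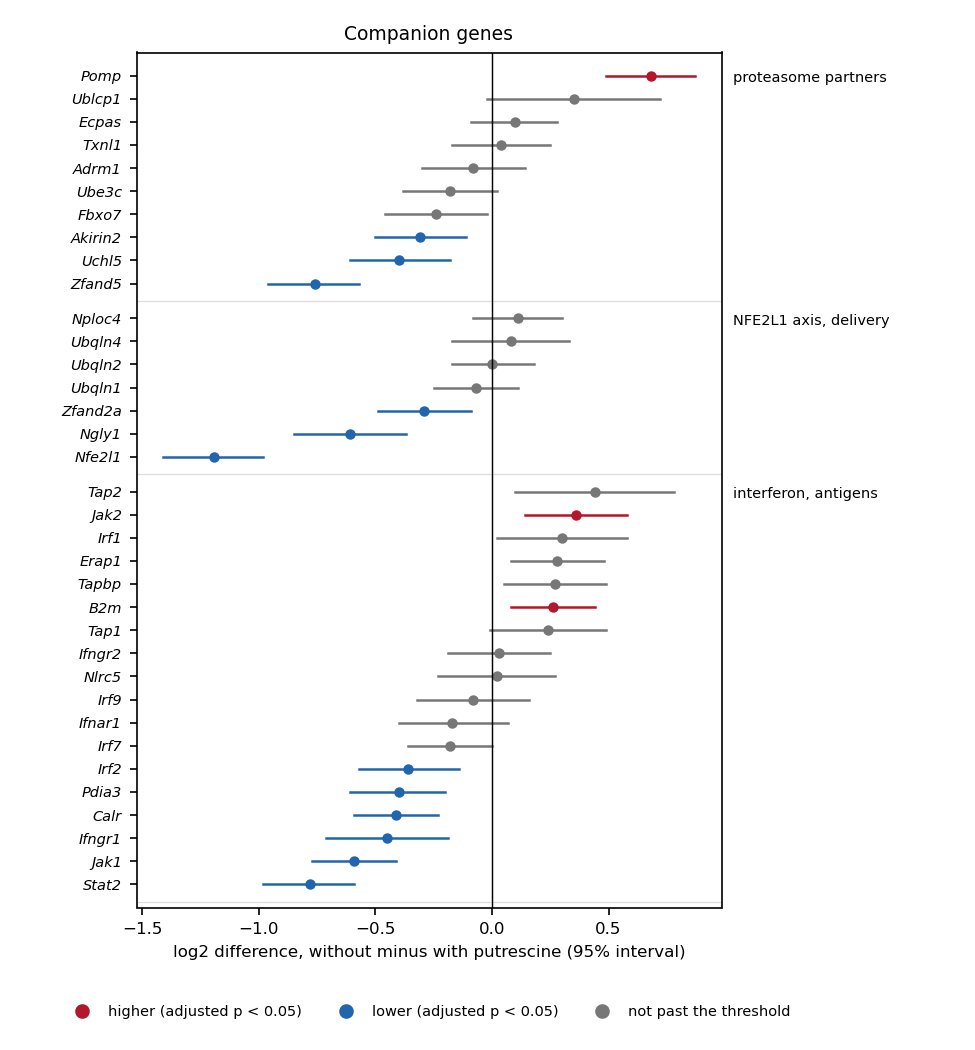
Log2 difference without minus with putrescine (x axis) of 35 genes that work with the proteasome or with interferon and antigen processing, as the estimate of the limma fit with its 95% interval (3 arrays per group). Nfe2l1 at -1.19 is the lowest and Pomp at 0.68 the highest.

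Interferon and antigen processing genes were examined because Psmb8, Psmb9, Psmb10, Psme1 and Psme2 belong to that response in mammals. Of 18 measured, 2 rose and 6 fell, while 10 did not pass, with a median of -0.03. The 44.4% that passed, 11.1% higher and 33.3% lower, compares with 48.6% of bright genes (27.0% higher, 21.6% lower). Among all probe sets 24.4% passed. The list was not all bright, with means from 4.92 to 12.22. Stat2, a transducer of type I interferon signals, had 7.02, 6.87 and 6.96 without putrescine, against 7.71, 7.69 and 7.80 with it. It was 1.72-fold lower (log2 difference -0.78, SE 0.08, limma adjusted p = 0.000305). The kinase gene Jak1 had -0.59 (adjusted p = 0.000818), and the peptide-loading chaperone genes Calr and Pdia3 had -0.41 and -0.40 (adjusted p = 0.00541 and 0.0103).

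The interferon gamma receptor gene Ifngr1 had -0.45 (adjusted p = 0.0189) and the regulator gene Irf2 -0.36 (adjusted p = 0.0226). The Ifngr1 call was lost without no-putrescine replicate 1 or 3 and with replicate 1 or 2 of the putrescine-fed cultures left out (up to 0.0684). The Irf2 call was lost without any 1 of the arrays except replicate 2 of the putrescine-fed cultures (up to 0.0745). The genes that rose were Jak2 (0.36, adjusted p = 0.0264) and B2m, the light chain of class I molecules (0.26, adjusted p = 0.0412). The Jak2 call was lost without replicate 1 or 3 of either group and with replicate number as a block (up to 0.0878). The B2m call was lost without any 1 of the 6 arrays, with replicate number as a block and after quantile normalization (up to 0.115).

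The peptide transporter genes Tap1 and Tap2 lie beside Psmb8 and Psmb9 in mammals. Tap2 had 7.11, 7.46 and 7.45 without putrescine and 6.79, 6.71 and 7.20 with it, with overlap (difference 0.44, adjusted p = 0.067). It passed in 6 of 11 alternatives, among them the fits without no-putrescine replicate 1 and with replicate 3 of the putrescine-fed cultures left out (adjusted p 0.0165 to 0.194). Tap1 had 0.24 (adjusted p = 0.157). Tapbp and Erap1, also of antigen processing, had 0.27 and 0.28 with separate groups (limma adjusted p = 0.0806 and 0.0504). They passed in 4 and 3 of the 11 alternatives. Of the 18 genes in the list 9 had a difference above 0, while the peptide-loading genes Calr and Pdia3 fell. Irf1, a transcription factor that induces Psmb8 and Psmb9, had 7.31, 7.54 and 7.45 without putrescine and 6.93, 7.36 and 7.10 with it. The groups overlapped (difference 0.30, adjusted p = 0.117), and it passed with replicate 2 of the putrescine-fed cultures left out (adjusted p = 0.0381). Nlrc5, the class I transactivator gene, had 0.02. Other genes of the list that did not pass were Irf7 (-0.18), Ifnar1 (-0.17), Irf9 (-0.08) and Ifngr2 (0.03). For Irf7 every array without putrescine was below every array with it (limma adjusted p = 0.15), and for the others the groups overlapped.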

How the data were processed

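Per the labels, RNA from 6 CHO-K1 cultures was hybridised to 1 whole-transcript array each. The authors deposited 1 value per array for each probe set, treated here as log2. They used Transcriptome Analysis Console, per the submitters' processing notes, whose version and settings the labels leave out. The log base was inferred from the range of values, and folds assume base 2. Array medians were 4.92 to 4.98. The table held 29700 probe sets and 1 missing value, with 16481 probe sets of 1 symbol. No detection p-value was used.

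A linear model with group as its term was fitted to all probe sets (limma 3.58.1, R 4.3.3, two-sided, Benjamini-Hochberg threshold 0.05), after a check on simulated data. Each gene was represented by its probe set with the highest mean. A pair of probe sets with several symbols, a proteasome gene among them, was left out. All 43 symbols matched the RefSeq gene table of CriGri-PICRH-1.0 by identifier. Every member could be named. Values per array are given for members past the threshold with an absolute log2 difference of at least 0.5, for catalytic and immunoproteasome subunits and activators, for the smallest difference of each class, and for others picked after their values were seen. Of the companion lists, genes that passed were named, and some that did not were added after their values were seen. The members and lists were chosen with earlier results of these data known. Alternatives were quantile normalization, a filter on dim probe sets, a trended robust variance, a fit per gene, a replicate block and leaving out each array. The pair with Psma8 and a search of promoters were not run, since neither probe set nor sequence was at hand. The labels call the cultures biological triplicates, and 3 arrays per group limit the precision.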

Additional observations from a re-analysis of the deposited data

How the results depend on the processing

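Of the 18 members that rose, 13 kept the call in all 11 alternatives, as did Psme4. Of the 24 that did not pass, 4 passed in at least 1 alternative. The count of members that rose was 13 to 16 with 1 array left out and 15 with replicate number as a block, which kept Psme4 as the 1 member that fell and changed no call among the members other than those of Psma2, Psmb3 and Psmg2. The companion genes followed through the alternatives were those that passed and some that did not. Among them the block ended the calls of Jak2, Zfand2a, Akirin2 and B2m and added Tap2. Deviations from the group mean of samples with the same number correlated at 0.045, -0.101 and -0.02, so the values showed no pairing by number. Whether cultures of the same number were handled together cannot be told from these correlations. A second member fell (2 in all, against 1) after quantile normalization, with dim probe sets left out, with a trended robust variance and in the fit per gene, and in each case it was Psmd11. After quantile normalization the medians were 0.19 for the constitutive core, 0.12 for the base and 0.12 for the lid. With 1 array left out they ran from 0.22 to 0.28 for the core, 0.07 to 0.21 for the base, 0.09 to 0.16 for the lid and 0.17 to 0.33 for the immunoproteasome genes. The difference of Psmb10 minus Psmb7 ran from -0.01 to 0.11 over those fits, and its sign turned with replicate 2 of the putrescine-fed cultures left out. The cause of these shifts was not tested. Of the 17 companion and marker genes that passed, 10 kept the call in every alternative. With no detection p-value, a level near that of the other-tissue markers, as for Psmb11, cannot be told from background.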
